A study of Homo sapiens with 6 samples.

Results

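DNA replication and nucleotide synthesis genes were examined in LNCaP cells exposed to gedunin. LNCaP is an established line of human prostate cancer cells that respond to androgen. Gedunin is a plant limonoid. The set was given as a list of 49 genes, and a gene was counted as measured when at least 1 probe set named it alone. That held for 48 of the 49, out of 12165 genes measured on the array, and UHRF1 was not analysed here. The list holds 14 genes of origin licensing, 18 of origin firing and the fork, 9 of the replicative polymerases, 4 of deoxynucleotide supply, and 4 of chromatin assembly and E2F control.

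Cells in RPMI with 10% FBS received 20 µM gedunin (3 arrays) or DMSO, the solvent (3 arrays), for 6 h at a starting confluency of 50%. Expression was read on Affymetrix arrays, and the arrays of a group are labelled as biological replicates. The labels do not say whether these were separate cultures, so p-values speak to the spread among arrays of 1 cell line, which may be technical. The comparison asks which of these genes respond within hours of exposure.

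Before a cell can copy its DNA, the origin recognition complex, CDC6 and CDT1 load the MCM helicase onto origins, a step called licensing that geminin blocks after replication has begun. In S phase the kinase CDC7 with its partner DBF4 helps turn loaded MCM into an active fork helicase with CDC45 and GINS. Polymerases, the PCNA clamp, its loader RFC, the single-strand binding protein RPA, the flap nuclease FEN1 and the ligase LIG1 then make and join the new strands. Ribonucleotide reductase, thymidylate synthase and thymidine kinase supply the building blocks. Many of these genes are transcribed under E2F factors as cells pass from G1 into S phase.

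One control array, labelled DMSO 3, lacked the prostate profile of the other 5 and was kept out of the test. All 8 measured luminal prostate markers read lower there than on DMSO 1 and 2, 6 of them at least 8-fold, and their summed intensity was 207 on DMSO 3 against 14359 and 14765 on DMSO 1 and 2. Of 11 measured leukocyte and B cell markers, 10 read at least 8-fold higher on DMSO 3. On the 5 arrays of the test, the leukocyte markers summed to between 775 and 867 with gedunin and to 952 and 973 in DMSO 1 and 2. Most of that sum was LCP1, while CD74 read between 19.1 and 20.8. The luminal sum was between 13639 and 14283 with gedunin. The part of these shifts in the results below was not tested. The median intensity of an array was between 31.1 and 32.0.

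With gedunin, 12 of the 48 measured members fell and 2 rose, while 34 were not called. A gene was called when limma's Benjamini-Hochberg adjusted p over all probe sets was under 0.05 in the fit of 3 gedunin arrays against DMSO 1 and 2. The share called lower was 25% of the members against 9.35% of all genes, and the share called higher was 4.17% against 8.22%. In RNA from a whole culture, fewer cells with a transcript and less of it per cell cannot be told apart. The median log2 difference (gedunin minus DMSO 1 and 2) was -0.22 over the members and -0.017 over all genes. It was below 0 for 40 of 48 members, against 53.6% of all genes. For 25 members all 3 gedunin arrays read below both DMSO arrays, 52.1% against 26.0% of all genes, and for 6 members they read above both, 12.5% against 20.2%. The largest change on the probe sets used was a 2.46-fold fall, that of RRM2.

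**Figure D1:**
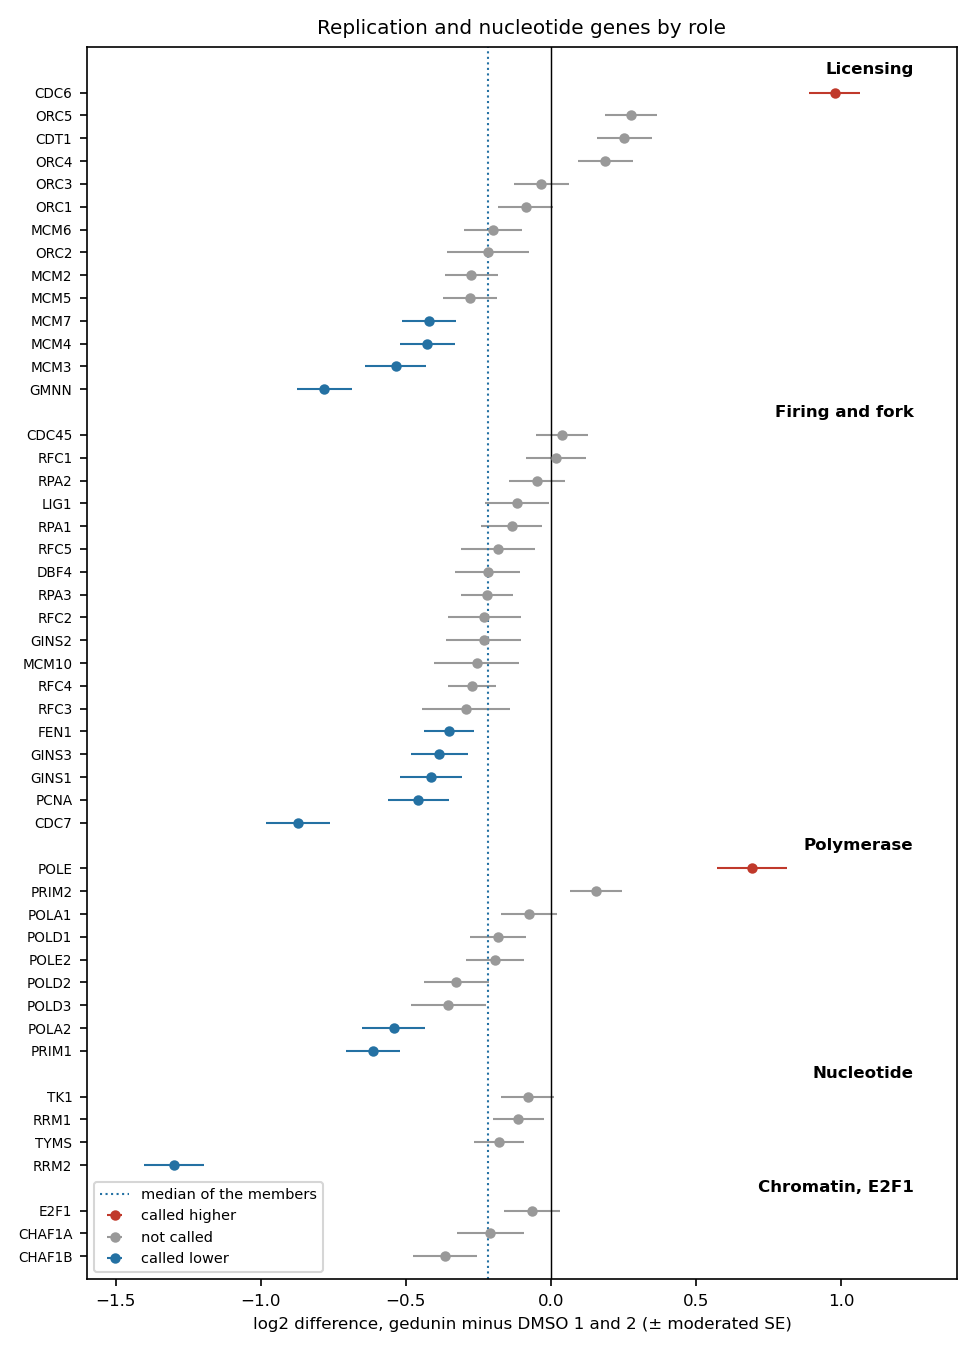
Log2 difference between gedunin (3 arrays) and DMSO 1 and 2 for the 48 measured members, grouped by role, with bars of 1 moderated standard error. Called falls and rises are coloured, and most points lie left of 0, with the dotted line at the median of the members, -0.22.

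The count of falls depended on both control arrays. It was 7 without DMSO 1 and 4 without DMSO 2, where 4.56% and 4.34% of all genes were called lower. It ranged from 11 to 13 when a gedunin array was left out. GMNN, CDC7, PRIM1 and RRM2 (lower) and CDC6 and POLE (higher) were called in each of these 5 fits. With DMSO 3 included, 1 member fell on the probe sets used (GMNN) and 0 rose, against 0.353% and 1.32% of all genes. In that fit 11 members had an unadjusted p under 0.05, against 13.4% of all genes. The second probe set of RRM2, not used, also passed there. Centring on GAPDH and ACTB moved the median of all genes by -0.17. It turned the split of all called genes, 1000 higher and 1138 lower, into 651 higher and 3137 lower. That of the members became 2 higher and 31 lower. ACTB was itself called higher with gedunin in the main fit (log2 difference 0.32, adjusted p = 0.0347), so this centring leans on a gene that changed. The median of the members minus that of all genes, -0.20, is the same under any such centring by construction. Errors below are limma's moderated standard errors, with n = 3 gedunin and 2 DMSO arrays.

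Among the licensing genes, MCM2 to MCM7 encode the hexameric helicase. On the probe sets used, all 6 read lower on the 3 gedunin arrays than on both DMSO arrays (26.0% of all genes did). Their median log2 difference was -0.35. On the second MCM5 probe set, which was dimmer, the groups overlapped (-0.087 ± 0.09, adjusted p = 0.597). MCM3, MCM4 and MCM7 were called lower, 3 of the 6 genes (50%), against 9.35% of all genes. MCM3 had an intensity of 220.0, 247 and 203 on the gedunin arrays, against 307 and 339 on DMSO 1 and 2. That is a fall of 0.54 ± 0.11 on the log2 scale (adjusted p = 0.00719). MCM4 read 284, 293 and 255 with gedunin and 366 and 378 with DMSO (log2 difference -0.43 ± 0.09, adjusted p = 0.0130). MCM7 read 311, 355 and 324 with gedunin and 452 and 431 with DMSO (-0.42 ± 0.09, adjusted p = 0.0130). The second MCM7 probe set was not called (-0.25 ± 0.09, adjusted p = 0.0924). Of the other 2 MCM4 probe sets, 1 was called lower (-0.50 ± 0.10, adjusted p = 0.00668) and 1 was not called (-0.29 ± 0.09, adjusted p = 0.0508). The calls of MCM4 and MCM7 were lost without either DMSO array, and that of MCM3 without DMSO 2. The other 3 subunits had smaller differences, at -0.27 ± 0.09 for MCM2 (adjusted p = 0.0749), -0.28 ± 0.09 for MCM5 (adjusted p = 0.0742) and -0.20 ± 0.10 for MCM6 (adjusted p = 0.242).

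Of the 7 ORC, CDC6 and CDT1 genes, which load the helicase, 1 was called, against 17.6% of all genes called in either direction. Whether these 7 genes differ from the MCM genes was not tested. CDC6, the ATPase that recruits MCM together with CDT1, read 179, 186 and 192 with gedunin, against 96.3 and 92.3 with DMSO. It rose by 0.98 ± 0.09 on the log2 scale (adjusted p = 5.07e-05), close to a 1.97-fold change, and the groups were far apart. Its other probe set read 141, 166 and 114 with gedunin and 77.8 and 58.2 with DMSO (1.04 ± 0.16, adjusted p = 0.00198). CDT1, the partner of CDC6 in loading, read 31.3, 32.6 and 31.2 with gedunin and 24.8 and 28.5 with DMSO, near or below the array median. All 3 gedunin arrays were above both DMSO arrays, but CDT1 was not called (0.25 ± 0.09, adjusted p = 0.110).

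GMNN encodes geminin, which binds CDT1 and prevents a second round of licensing. It read 242, 237 and 213 with gedunin, against 383 and 410.3 with DMSO, with no overlap. The fall was 0.78 ± 0.10 on the log2 scale (adjusted p = 4.15e-04). Of the 5 origin recognition genes, 0 were called (17.6% of all genes were), with 1 of the 5 at an unadjusted p under 0.05 (30.3% of all genes). Their median log2 difference was -0.033. ORC5 came closest, at 208, 221 and 213 with gedunin and 169 and 185 with DMSO (0.28 ± 0.09, adjusted p = 0.0679). It was called higher with dim probe sets left out (adjusted p = 0.0437) and with 16 added before log2 (adjusted p = 0.0292). ORC4 likewise read above both DMSO arrays (0.19 ± 0.09, adjusted p = 0.239), and ORC1 was dim, between 26.0 and 30.4 on the 5 arrays. The difference was -0.22 ± 0.14 for ORC2 and -0.033 ± 0.09 for ORC3, with overlapping groups. Together the 14 licensing genes held 4 falls and 1 rise, with a median of -0.21. The shares were 28.6% and 7.14%, against 9.35% and 8.22% of all genes.

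**Figure D2:**
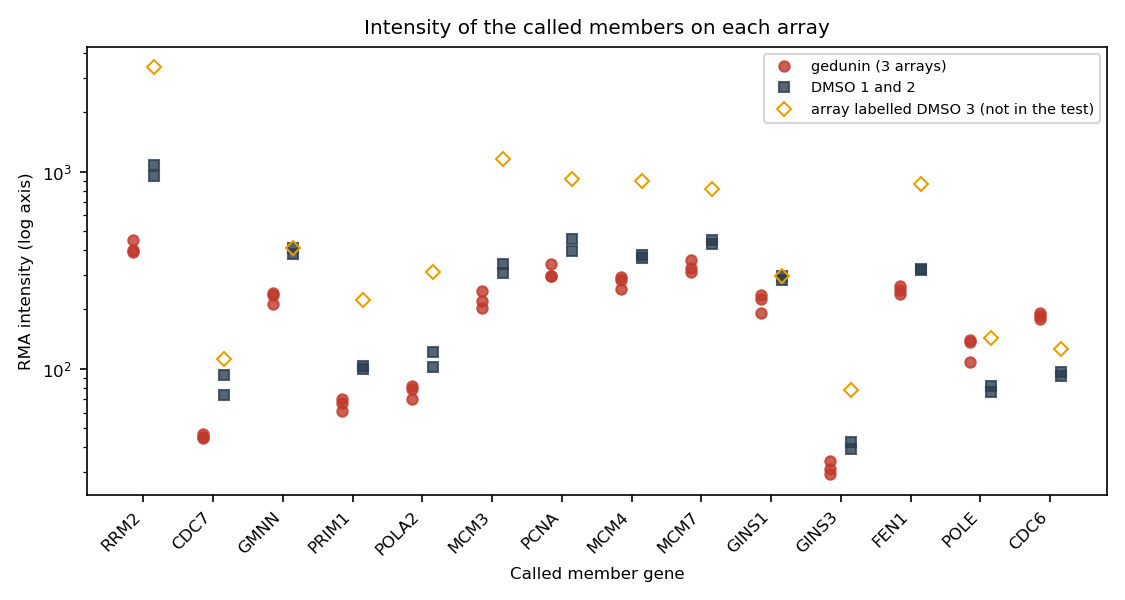
RMA intensity on a log axis for the 14 called members, ordered by log2 difference, with circles for the 3 gedunin arrays, squares for DMSO 1 and 2 and open diamonds for the array labelled DMSO 3, which was not in the test. For the 12 falls on the left all circles lie below both squares, and for POLE and CDC6 on the right they lie above them.

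Of the 18 genes of firing and the fork, 5 fell and 0 rose, with a median log2 difference of -0.23. That is 27.8% lower and 0% higher, against 9.35% and 8.22% of all genes. CDC7, the kinase that triggers origin firing, read 44.4, 46.6 and 45.1 with gedunin, against 93.5 and 73.6 with DMSO. It fell by 0.87 ± 0.11 on the log2 scale (adjusted p = 5.47e-04), and the DMSO arrays lay farther apart than the gedunin arrays. DBF4, its regulatory partner, read 37.8, 33.2 and 29.8 with gedunin and 40.6 and 37.3 with DMSO, so the groups overlapped (-0.22 ± 0.11, adjusted p = 0.253).

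GINS is a small complex that joins MCM and CDC45 in the active helicase. GINS1 read 236, 226 and 192 with gedunin, against 283 and 296 with DMSO, and fell by 0.41 ± 0.11 on the log2 scale (adjusted p = 0.0267). GINS3 read 34.1, 29.2 and 31.2 with gedunin and 39.4 and 42.8 with DMSO, and fell by 0.39 ± 0.10 (adjusted p = 0.0256). The second probe set of GINS3 was dimmer and not called (-0.17 ± 0.10, adjusted p = 0.321). GINS2 overlapped, at 314, 246 and 323 with gedunin and 319 and 371 with DMSO (-0.23 ± 0.13). CDC45 had 0.037 ± 0.09, and the initiation factor MCM10 had -0.26 ± 0.15, with 1 gedunin array above both DMSO arrays.

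PCNA, the sliding clamp, read 294, 296 and 338 with gedunin, against 394 and 457 with DMSO. The fall was 0.46 ± 0.11 on the log2 scale (adjusted p = 0.0160), and the call was lost without gedunin 1 or DMSO 2. The 5 clamp loader genes RFC1 to RFC5 held 0 calls (17.6% of all genes were called), with a median of -0.23. On the probe sets used, 1 of them had an unadjusted p under 0.05, against 30.3% of all genes. RFC4 was the nearest to a call, at 199, 197 and 194 with gedunin and 237 and 238 with DMSO (-0.27 ± 0.08, adjusted p = 0.0559). RFC1, the large subunit, had 0.018 ± 0.10 on the probe set used. Another RFC1 probe set read 158, 172 and 177 with gedunin and 139 and 146 with DMSO. All gedunin arrays lay above both DMSO arrays there, and it was not called (0.25 ± 0.09, adjusted p = 0.110). The 3 RPA genes, whose products coat exposed single strands, also held 0 calls, with differences from -0.22 (RPA3) to -0.049 (RPA2). An unadjusted p under 0.05 was seen for 1 of them. The same shares of all genes apply, 17.6% and 30.3%.

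FEN1, the nuclease that trims Okazaki fragments, read 263, 240.1 and 251 with gedunin, against 318 and 322 with DMSO. It fell by 0.35 ± 0.09 on the log2 scale (adjusted p = 0.0231). On its other probe set the groups overlapped, at 246, 244 and 274 with gedunin and 274 and 340 with DMSO, and the gene was not called there (-0.26 ± 0.11, adjusted p = 0.165). LIG1, the ligase that seals the fragments, read 50.8, 41.8 and 48.3 with gedunin and 54.2 and 47.6 with DMSO (-0.12 ± 0.11, adjusted p = 0.571). The calls of FEN1 and GINS3 were lost without gedunin 2 or without either DMSO array, and that of GINS3 also without gedunin 3. The call of GINS1 was lost without gedunin 3 or either DMSO array.

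Among the 9 polymerase and primase genes, 2 fell and 1 rose (22.2% and 11.1%, against 9.35% and 8.22% of all genes). PRIM1, the catalytic subunit of primase, read 61.2, 66.9 and 70.7 with gedunin, against 103 and 99.6 with DMSO, and fell by 0.61 ± 0.09 on the log2 scale (adjusted p = 0.00169). POLA2, the accessory subunit of the polymerase alpha that extends RNA primers, read 70.3, 81.8 and 78.7 with gedunin and 102 and 122 with DMSO. It fell by 0.54 ± 0.11 (adjusted p = 0.00771), a call lost without DMSO 2. The other subunits of the same complex were not called. POLA1, the catalytic subunit, had -0.077 ± 0.10, and PRIM2, the large primase subunit, 0.16 ± 0.09 from a level below the array median.

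POLE, the catalytic subunit of the leading-strand polymerase epsilon, was the polymerase gene that rose. It read 139, 108 and 137 with gedunin, against 81.5 and 76.3 with DMSO, a log2 difference of 0.69 ± 0.12 (adjusted p = 0.00341). This was measured by a single probe set. POLE2, the second subunit of that enzyme, was lower in all 3 gedunin arrays, at 39.6, 35.3 and 33.6, than in DMSO, at 42.8 and 39.7, but was not called (-0.19 ± 0.10, adjusted p = 0.254). The 3 polymerase delta genes also read below both DMSO arrays (26.0% of all genes did), without being called. Their differences were -0.18 ± 0.10 for the catalytic subunit POLD1, -0.33 ± 0.11 for POLD2 and -0.35 ± 0.13 for POLD3.

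Of the 4 nucleotide genes, 1 fell (9.35% of all genes did), and all 4 differences were below 0 (53.6% of all genes). RRM2, the small subunit of ribonucleotide reductase and the one that limits its activity in S phase, read 452, 399 and 391 with gedunin, against 950.5 and 1086 with DMSO. It fell by 1.30 ± 0.10 on the log2 scale (adjusted p = 2.49e-05), the one member past 2-fold on the probe sets used. Its second probe set gave a smaller fall, with 591, 525 and 593 with gedunin and 930.4 and 1011 with DMSO (-0.77 ± 0.10, adjusted p = 4.97e-04). The first probe set was the brighter when DMSO 3 counted in the mean and the second when it did not. In the main fit the size for RRM2 depends on that choice while the call does not. In the limma fit with DMSO 3 included, the call depends on it too. There the second probe set passed (-0.84 ± 0.11, adjusted p = 0.0337) and the first did not (-1.88 ± 0.50, adjusted p = 0.207). With the second probe set for RRM2 and the others kept, no member passed 2-fold, and CDC7 and GMNN had the larger falls. The other probe set of CDC6, not used, had a 2.06-fold rise.

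The partner subunit RRM1 had 559, 512 and 545 with gedunin and 565 and 599 with DMSO. Its gedunin arrays lay just below the DMSO arrays, and it was not called (-0.11 ± 0.09, adjusted p = 0.486). TYMS, which makes thymidylate, read 765, 726 and 740 with gedunin and 825 and 859 with DMSO (-0.18 ± 0.09, adjusted p = 0.215). TK1, which salvages thymidine, read 94.8, 108 and 101 with gedunin and 107 on both DMSO arrays (-0.081 ± 0.09). The median of the 4 genes was -0.15, against -0.21 for licensing, -0.23 for the fork and -0.19 for the polymerases. No test of the difference between these medians was made.

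None of the 3 measured genes of chromatin assembly and E2F control was called (17.6% of all genes were). An unadjusted p under 0.05 was seen for 1 of them, against 30.3% of all genes. CHAF1B, a subunit of chromatin assembly factor 1, read 30.3, 37.0 and 37.6 with gedunin and 44.2 and 45.4 with DMSO (-0.36 ± 0.11, adjusted p = 0.0535). CHAF1A, its large subunit, had -0.21 ± 0.12 with overlapping groups. E2F1, the activator of many replication genes, read 32.0, 36.7 and 35.8 with gedunin and 37.9 and 35.0 with DMSO, near the array median (-0.066 ± 0.10, adjusted p = 0.733). Its second probe set was the brighter on the 5 arrays of the test, at 36.5, 31.7 and 37.1 with gedunin and 39.4 and 39.7 with DMSO. There all gedunin arrays lay below both DMSO arrays, and it was not called either (-0.18 ± 0.10, adjusted p = 0.297).

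The promoters of the members were searched for the E2F consensus because E2F factors are known regulators of these genes. The letters searched were TTTNNCGC, with NN as CC, CG, GC or GG, on both strands, where matches on opposite strands may overlap, within 250 bases before each start listed by RefSeq on GRCh38.p14. Of the 48 measured members, 43 matched the table, and MCM4, MCM5, RPA2, RPA3 and POLD3 did not. At least 1 match was present for 16 of these 43 genes (37.2%), against 505 of 9711 measured genes with an entry (5.20%) and 3.40% of all 27305 genes in the table. It was present in 6 of 11 genes called lower, 1 of 2 called higher and 9 of 30 not called. A gene counted when any of its starts held a match. The CCAAT box, searched as CCAAT on both strands, was present for 58.1% of the members and 42.5% of the measured genes. A match describes letters only and is not evidence of binding.

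The matches of the genes that fell are shown with up to 10 bases on each side, read 5′ to 3′ along the gene, with the match in capitals.
GMNN, chr6:24775323-24775350, plus strand: ctgggtcggtTTTGGCGCgctctcactt
MCM3, chr6:52284899-52284926, minus strand: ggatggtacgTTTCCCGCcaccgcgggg
MCM7, chr7:100101567-100101594, minus strand: agctcggaccGCGGGAAAcccggcgcct
MCM7, chr7:100101398-100101416, minus strand: gggggcgacgTTTCGCGCc
CDC7, chr1:91501034-91501061, plus strand: tgcagttcctTTTCCCGCcccccttcgg
CDC7, chr1:91501068-91501095, plus strand: ccgacctgcgGCGGGAAAgtcgcgcgcc
PCNA, chr20:5126664-5126691, minus strand: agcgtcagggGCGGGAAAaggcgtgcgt
POLA2, chr11:65261899-65261926, plus strand: tggctcccggTTTCGCGCatgcgtgcac

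CDC7 and MCM7 each held a pair of matches, and those of PCNA, the second of CDC7 and the first of MCM7 share the letters GCGGGAAA on the gene's strand. RRM2 held no E2F match in these windows. It held 3 CCAAT boxes before its first listed start, each followed by gggaaggg, shown here with the box in capitals.
RRM2, chr2:10122606-10122630, plus strand: caaggcgcagCCAATgggaagggtc
RRM2, chr2:10122636-10122660, plus strand: catggcacagCCAATgggaagggcc
RRM2, chr2:10122663-10122687, plus strand: ggcaccaaagCCAATgggaagggcc

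For called genes with 1 listed start and a large change, the whole 250 bases before the start are shown, with E2F and CCAAT matches in capitals. PRIM1 fell, and CDC6 and POLE are the members that rose. Of the letters searched, PRIM1 and CDC6 hold CCAAT boxes alone, while POLE holds both motifs. The E2F search took 4 exact words, so sites with other letters were not counted. The CDC6 window, for example, holds tttggcgg, which was not among them.
PRIM1, chr12:56752324-56752573, minus strand: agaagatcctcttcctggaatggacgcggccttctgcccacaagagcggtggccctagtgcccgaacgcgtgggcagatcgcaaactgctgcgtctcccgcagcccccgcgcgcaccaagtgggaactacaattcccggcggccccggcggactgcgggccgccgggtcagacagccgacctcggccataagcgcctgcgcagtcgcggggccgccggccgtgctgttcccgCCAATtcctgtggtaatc
CDC6, chr17:40287629-40287878, plus strand: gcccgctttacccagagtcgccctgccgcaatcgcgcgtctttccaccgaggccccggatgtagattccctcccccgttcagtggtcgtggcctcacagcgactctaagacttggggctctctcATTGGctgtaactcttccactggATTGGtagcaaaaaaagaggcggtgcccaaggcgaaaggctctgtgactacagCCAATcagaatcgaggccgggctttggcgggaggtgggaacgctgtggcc
POLE, chr12:132687343-132687592, minus strand: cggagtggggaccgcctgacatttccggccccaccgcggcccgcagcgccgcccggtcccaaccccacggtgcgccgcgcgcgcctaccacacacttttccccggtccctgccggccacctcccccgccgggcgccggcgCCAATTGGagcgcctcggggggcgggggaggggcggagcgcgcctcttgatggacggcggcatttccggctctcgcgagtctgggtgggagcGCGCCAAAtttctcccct

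Further genes of the pathway, in 5 lists outside the set, held 25 falls and 8 rises among 101 measured genes (24.8% and 7.92%). Over all genes the shares were 9.35% and 8.22%. Of 42 other replication genes 15 were lower (35.7%) and 3 higher (7.14%), with a median of -0.21. CCNA2, the S phase cyclin A2, read 84.5, 71.8 and 76.9 with gedunin, against 194 and 163 with DMSO, and fell by 1.20 ± 0.11 on the log2 scale (adjusted p = 6.45e-05). The cyclin E genes, which act with CDK2 at S phase entry, fell by 0.88 ± 0.13 (CCNE2, adjusted p = 0.00167) and 0.83 ± 0.13 (CCNE1, adjusted p = 0.00168). GINS4, the remaining GINS subunit, read 57.5, 64.5 and 55.6 with gedunin and 101 and 103 with DMSO (-0.79 ± 0.10, adjusted p = 3.84e-04).

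The 3 rises in that list were SLBP, ASF1A and DONSON. SLBP, which binds the stem-loop of histone mRNAs, read 1094, 1024 and 910.3 with gedunin, against 430.1 and 501 with DMSO, and rose by 1.12 ± 0.11 on the log2 scale (adjusted p = 1.00e-04). ASF1A, a histone chaperone, rose by 0.60 ± 0.10 (adjusted p = 0.00272), and DONSON, a replication fork factor, by 0.43 ± 0.09 (adjusted p = 0.0125). The call of DONSON was lost without DMSO 2 and with centring on GAPDH and ACTB.

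The E2F and RB family held 3 falls of 12 measured genes and 0 rises (25% lower, against 9.35% of all genes). TFDP1, the partner with which E2F factors bind DNA, read 246, 256 and 282 with gedunin and 427 and 409 with DMSO, and fell by 0.68 ± 0.09 on the log2 scale (adjusted p = 9.05e-04). E2F4 fell by 0.51 ± 0.09 (adjusted p = 0.00529), a call lost without DMSO 1, and E2F5 by 0.41 ± 0.12 (adjusted p = 0.0395), a call lost on leaving out any array but DMSO 2.

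Of 18 further pyrimidine genes, 3 fell and 0 rose (16.7% lower, against 9.35% of all genes). UMPS, which completes uridylate synthesis, read 99.9, 81.9 and 110 with gedunin and 156 and 152 with DMSO (-0.68 ± 0.12, adjusted p = 0.00449). SAMHD1, which degrades deoxynucleotides, and DUT, which removes dUTP, fell by 0.43 ± 0.11 and 0.34 ± 0.10 (adjusted p = 0.0313 and 0.0380). The call of UMPS was lost without DMSO 1, that of SAMHD1 on leaving out any array but DMSO 2, and that of DUT on leaving out any array but gedunin 2. SAMHD1 and DUT also lost it with the replicate block.

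Of 19 purine genes 3 were lower and 2 higher (15.8% and 10.5%, against 9.35% and 8.22% of all genes). PNP, a purine salvage enzyme, fell by 0.67 ± 0.10 (adjusted p = 0.00185), IMPDH1, an enzyme of guanine nucleotide synthesis, by 0.44 ± 0.11 (adjusted p = 0.0247), and ATIC, the last enzyme of purine synthesis, by 0.31 ± 0.09 (adjusted p = 0.0438). HPRT1, the salvage enzyme for hypoxanthine and guanine, rose by 0.74 ± 0.09 (adjusted p = 3.48e-04), and GMPS, which makes GMP, by 0.49 ± 0.11 (adjusted p = 0.0115). The call of IMPDH1 was lost without gedunin 3 or DMSO 1, that of ATIC on leaving out any array but gedunin 1, and that of GMPS without either DMSO array or with centring on GAPDH and ACTB.

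Folate genes, which supply one-carbon units to thymidylate and purines, held 3 rises and 1 fall among 10 measured genes. The shares were 30% and 10%, against 8.22% higher and 9.35% lower over all genes. MTHFD2, a mitochondrial folate enzyme, read 1124, 1110.4 and 1107 with gedunin, against 408 and 476 with DMSO, and rose by 1.34 ± 0.10 on the log2 scale (adjusted p = 1.12e-05). SHMT2, the mitochondrial serine enzyme that feeds it, rose by 0.51 ± 0.09 (adjusted p = 0.00339), and FPGS, which retains folate in cells, by 0.53 ± 0.15 (adjusted p = 0.0405). The cytosolic enzyme MTHFD1 fell by 0.44 ± 0.09 (adjusted p = 0.00836). The list median was 0.081, and -0.089 with centring on GAPDH and ACTB. The call of MTHFD1 was lost without DMSO 1, and that of FPGS without DMSO 1, gedunin 1 or gedunin 2 and with centring on GAPDH and ACTB.

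**Figure D3:**
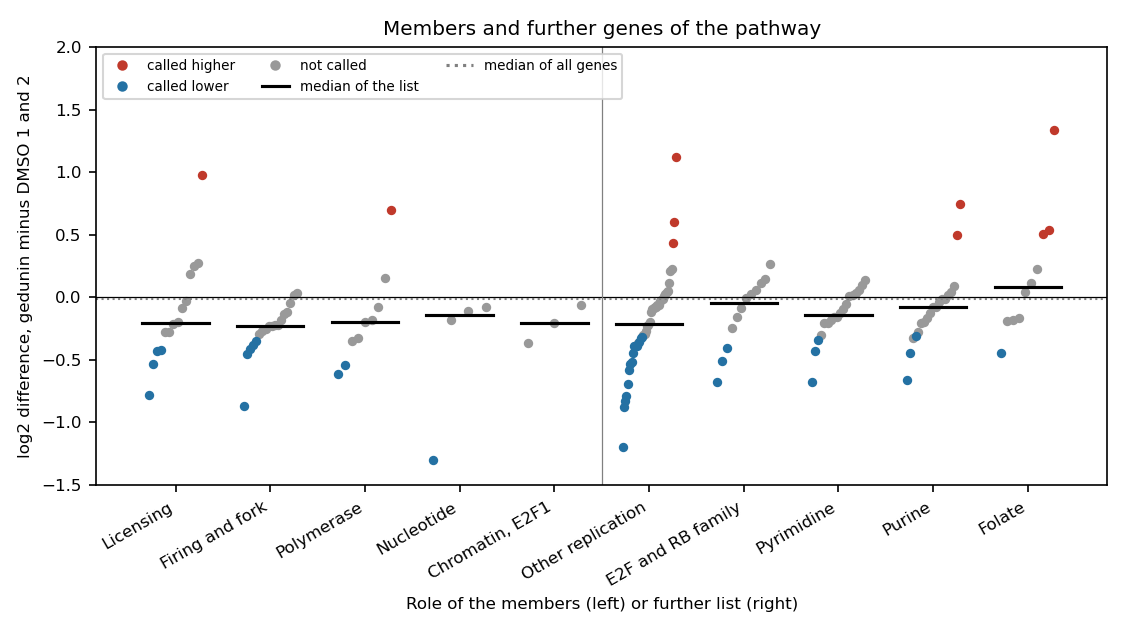
Log2 difference between gedunin and DMSO 1 and 2 for each measured gene of the 5 roles (left of the line) and of the 5 further lists (right). Black bars are list medians, from -0.23 for firing and fork to 0.081 for folate, and the dotted line is the median of all genes.

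On the array labelled DMSO 3 most members read higher than on DMSO 1 and 2. It is 1 array, so no test was made, and this comparison shares DMSO 1 and 2 with the one above. High growth genes on this array were known before the comparison was set. Of the 48 members, 39 read above both arrays and 5 below both, but the matching shares of all genes were not counted. At least 2-fold above the mean of DMSO 1 and 2 were 18 members (9.22% of all genes were). At least 2-fold below it were 0 on the probe sets used (12.9% of all genes). The median log2 difference was 0.87 over the members and 0.012 over all genes. By role it was 0.68 for licensing, 0.88 for the fork, 1.14 for polymerases, 0.64 for nucleotide genes and 0.27 for chromatin and E2F genes.

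MCM5 stood out, at 1067 on DMSO 3 against 183 and 182 on DMSO 1 and 2, a 5.84-fold excess. LIG1 read 229 on DMSO 3 and 54.2 and 47.6 on DMSO 1 and 2, a 4.51-fold excess. RRM2 read 3379 on its first probe set against 950.5 and 1086, and 1112 on its second against 930.4 and 1011. GMNN, at 409, GINS1, at 294, and TK1, at 100.2, were close to the levels of DMSO 1 and 2. POLD2 read 557 on DMSO 3 against 1047 and 1043, the largest deficit of the set on the probe sets used. A probe set of RFC1 that was not used read 68.4 on DMSO 3 against 139 and 146, a 2.08-fold deficit. These levels belong to an array with leukocyte markers and without luminal ones, so the growth state of its cells and their cell type cannot be told apart.

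**Figure D4:**
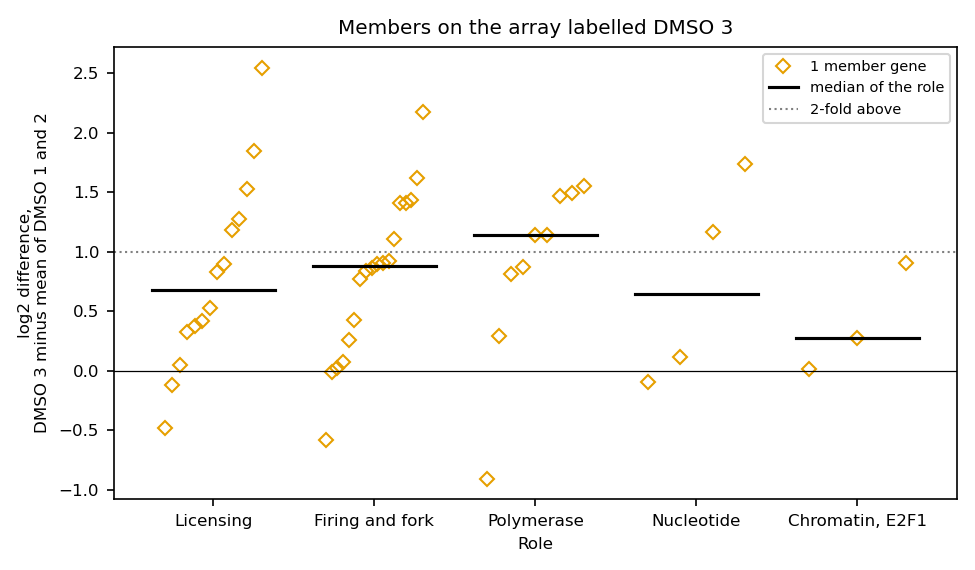
Log2 difference between the array labelled DMSO 3 and the mean of DMSO 1 and 2, with a diamond for each member and a bar for the median of each role. In all 5 roles the median is above 0, from 0.27 to 1.14, and the dotted line marks 2-fold.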

How the data were processed

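Deposited values are 1 RMA intensity per array for 22215 probe sets on a linear scale. The notes on processing from the submitters name RMA without a version, per the labels. Which arrays were normalized together is not given in the sources used here. Precision is limited by how few arrays there are. Values were taken to log2. Of the probe sets, 19724 named 1 gene in the platform annotation of 2016, 568 named several and 1923 were not listed. A gene took the probe set with the highest mean log2 over all 6 arrays. Gedunin (3 arrays) was compared with DMSO 1 and 2 by limma 3.58.1 (R 4.3.3), lmFit and eBayes without trend, no filter, Benjamini-Hochberg over all probe sets, threshold 0.05. The code was tested on simulated data, where it recovered 0% of log2 changes of 0.25, 24% of 0.5, 66% of 1 and 100% of 2. Far fewer probe sets changed there than were called in the data, so these shares do not carry over. A member that was not called is not shown to be unchanged.

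Members and lists were chosen with earlier results of these data known. All members may be named. From the 5 further lists, up to 4 called genes with the largest difference in each direction were named, plus any past 2-fold; LCP1 and CD74 were named after their values were seen. The alternatives were all 6 arrays, leaving out each array, a replicate block, centring on GAPDH and ACTB or on the array median, leaving out dim probe sets, a second quantile normalization, eBayes with trend and robust, log2 of the value plus 16, other choices of probe set, and a threshold of 0.01. Promoter sequences are from RefSeq, GRCh38.p14.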

Additional observations from a re-analysis of the deposited data

Results flagged for a closer look

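On the array labelled DMSO 3, which the test did not use, 18 of the 48 members read at least 2-fold above the mean of DMSO 1 and 2, against 9.22% of all genes. It is listed because the signal lies outside the measured comparison and above the level of the other control arrays. High growth genes on that array were known before the comparison was set, so the count is not independent support for them. That array also had 10 of 11 leukocyte and B cell markers at least 8-fold above DMSO 1 and 2, and their part in the member levels was not tested.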

How the results depend on the processing

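The median log2 difference of the members was -0.22 and stayed below 0 in each alternative. It was -0.52 with all 6 arrays, -0.39 with centring on GAPDH and ACTB, -0.19 with 16 added before log2, and -0.23 to -0.20 on leaving out each array. The number of genes called was 2138; it was 204 with all 6 arrays, 3788 with centring on GAPDH and ACTB, 1207 at a threshold of 0.01, and 1152 to 1935 on leaving out an array. The number of members called lower was 12; it was 1, 31 and 6 in the same 3 alternatives, and 4 to 13 on leaving out an array. Members called higher were 2, 0 with all 6 arrays, and 3 (ORC5 added) with dim probe sets left out or 16 added before log2. Sign changes were seen for members near 0, none of them called. CDC45 had -0.27 with all 6 arrays, -0.025 to 0.098 on leaving out each array (lowest without DMSO 2) and -0.13 with centring on GAPDH and ACTB. RFC1 had -0.068 to 0.071 on leaving out each array, -0.068 with the replicate block, and -0.15 with GAPDH and ACTB, where PRIM2 had -0.014. ORC3 had -0.089 to 0.012 on leaving out each array and 0.012 with the block, and RPA2 -0.15 to 0.054 on leaving out each array. Whether arrays with the same replicate number shared more than a number is not known. Their deviations from the group means correlated at -0.033 and 0.039. With 2 DMSO arrays those deviations mirror each other, so the correlations cannot decide this. The replicate block leaves gedunin 3 without a DMSO partner, so its differences are those without gedunin 3. With the replicate block 1850 genes were called, and 12 members fell and 2 rose; the calls of GINS1, GINS3 and FEN1 were lost, and MCM10, RFC3 and CHAF1B passed.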
